A study of Mus musculus with 4 samples.

Results

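Collagens are triple-helical proteins of the extracellular matrix, and 36 genes encode the collagen chains described here, which are those outside the set that defines cartilage. They were taken by symbol from the 17575 genes listed in the libraries, which hold 44 collagen chain genes in all. The chains of types II, IX, X, XI and XXVII, encoded by 8 genes, were left out. The remaining 36 comprise 7 fibrillar chains, 6 type IV chains of basement membranes, 6 type VI chains, 6 chains of fibril-associated collagens (FACITs) and 11 others.

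The RNA came from rib chondrocytes of C57/Bl6 mice aged 10 days, freed from cartilage by collagenase and plated. One group was wild type. The other, called the knockout here, carried Col2Cre(Tg) together with Kdm6a(fl/fl) and with Kdm6b(fl/fl). Each group had 2 libraries. Cre was driven by Col2, which is active in cartilage, so cells of other types in the culture need not have lost either gene. Kdm6a and Kdm6b encode demethylases that take a repressive methyl mark off histone H3. Triplicates are mentioned in the series' design text, and 2 libraries of each genotype were analysed here. The labels do not say whether the libraries came from separate animals or whether the wild type mice carried Cre or loxP sites, so p-values measure only the spread between these libraries, which may be technical.

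Each collagen molecule is built of a trio of alpha chains that fold together in the endoplasmic reticulum, are secreted, and assemble outside the cell. Fibrillar chains form the cables of the tissue, type IV chains form the sheet under epithelia and vessels, type VI chains form beaded microfibrils around cells, and FACITs coat fibrils. In cartilage, type VI collagen surrounds each chondrocyte, whereas type I collagen belongs to bone, tendon, perichondrium and fibrous tissue and is a known product of chondrocytes that lose their character in flat culture.

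Depth was 31178248 to 32332044 expected counts per library. Kdm6a measured 52.6 and 56.9 CPM (expected counts scaled by library size and TMM) in wild type and 28.6 and 31.4 in the knockout, and Kdm6b measured 131 and 118 against 51.4 and 46.2. Both fell (log2 fold change -0.87, SE 0.087, adjusted p = 0.00489, and -1.35, SE 0.091, adjusted p = 0.00174, by edgeR), and neither was near 0 in counts that cover all exons. All 10 chondrocyte markers were measured in every library, with a summed level of 37285 and 38945 CPM in wild type against 51123 and 53041 in the knockout. Of these 10, 3 rose and 3 fell at an adjusted p under 0.05 (edgeR), where 3.62% of all genes tested rose and 5.63% fell. Matn3 rose from 23.8 and 30.7 to 95.3 and 115 CPM, and Matn1 fell from 29.3 and 30.7 to 6.04 and 7.95. The gene 3110079O15Rik, now named Snorc, fell from 44.4 and 39.6 to 28.3 and 26.6. Col2a1 makes up most of the sum. None of the markers of other cell types listed was at 0 in all 4 libraries.

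Type VI collagen made up most of this RNA. The 36 chains took 1.85% to 2.01% of all counts in each library, and type VI took 89.5% to 93.7% of that share. By FPKM, which is a level per transcript length, Col6a1 held 38.5% of the summed level of the 36 chains in wild type, Col6a2 31.7% and Col6a3 21.2%. The next chains in order in wild type were Col16a1, Col1a2, Col5a3, Col15a1, Col1a1, Col4a1 and Col5a1. These neighbours were close: Col16a1 measured 63.6 and 70.3 FPKM, Col1a2 49.2 and 61.0, Col5a3 28.1 and 38.0, Col15a1 26.0 and 33.1, and Col1a1 20.3 and 28.4. The ranges of the last 3 overlapped each other, and those of Col16a1 and Col1a2 did not.

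**Figure D1:**
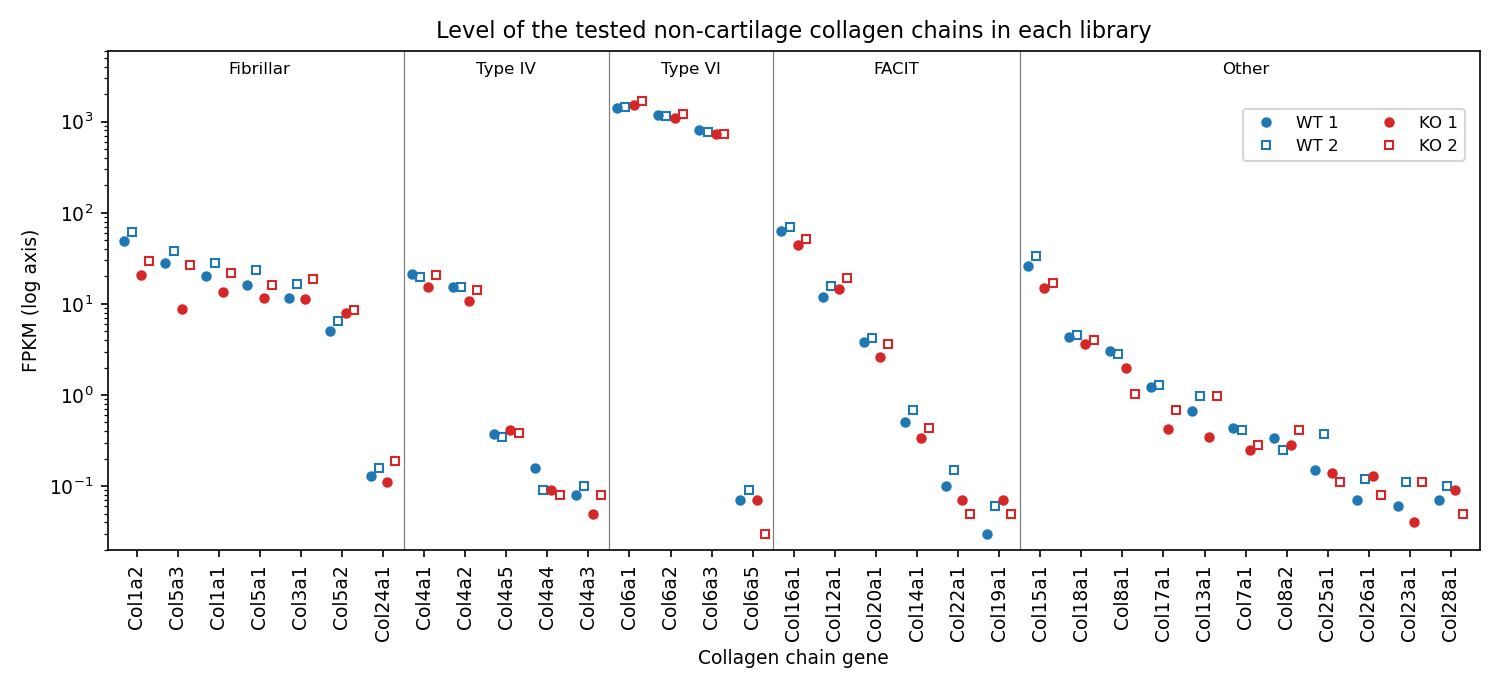
Level of each tested chain in FPKM (log axis) in every library, with 2 wild type and 2 knockout points per gene, grouped by collagen type. Col6a1, Col6a2 and Col6a3 of type VI stand above all others, with Col6a1 at 1405 to 1698 FPKM, against 44.8 to 70.3 for Col16a1.

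33 of the 36 chains passed the filter on low counts and were tested. In the knockout 4 of them fell and none rose at an adjusted p under 0.05 (edgeR quasi-likelihood test, Benjamini-Hochberg over all 13773 genes tested). The 4 are Col1a2, Col15a1, Col16a1 and Col17a1. Over all genes tested, 5.63% fell and 3.62% rose, and the falls among the chains, 4 of 33 or 12.1%, rest on few genes. At an unadjusted p under 0.05, 11 chains were lower and 1 was higher, and DESeq2 called 5 lower and 1 higher. Such unadjusted p-values were common, with 4016 of the 13773 genes tested under 0.05 in either direction. DESeq2 called 962 lower and 645 higher of 17547 genes. The median log2 fold change of the 33 chains was -0.36 against 0.0044 over all genes tested, and 24 of the 33 were below 0, or 72.7%, against 49.4% of all genes tested. In 16 of the 33, or 48.5%, both knockout libraries lay below both wild type libraries, and in 3, or 9.09%, above. The same held for 30.7% and 30.9% of all genes tested. The 8 cartilage chains differed in direction, with 4 rising, none falling at the threshold or at an unadjusted p under 0.05, none falling by DESeq2, and a median of 0.48.

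Col1a2 encodes the alpha2 chain of type I collagen, the main fibre of bone, tendon and skin. It measured 255 and 324 CPM in wild type and 106 and 150 in the knockout. Both knockout libraries lay below both wild type libraries, and the fall was 2.27-fold (log2 fold change -1.18, SE 0.19, adjusted p = 0.0163, edgeR). Col15a1 encodes a collagen with interrupted helices that carries glycosaminoglycan chains and sits beneath vessels and muscle. It measured 140 and 183 CPM against 80.2 and 90.6. That gap was also wider than the spread within either group, a 1.89-fold fall (log2 fold change -0.92, SE 0.14, adjusted p = 0.0141). Col16a1, a fibril-associated chain found in cartilage and skin, measured 335 and 380 CPM against 233 and 267, a smaller fall of 1.43-fold (log2 fold change -0.52, SE 0.10, adjusted p = 0.0306). Col17a1 encodes a transmembrane collagen best known from the attachment of skin epithelium. It was scarce here, at 6.80 and 7.41 CPM against 2.29 and 3.80, and fell 2.33-fold (log2 fold change -1.22, SE 0.25, adjusted p = 0.0343).

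In the authors' deposited table the same 4 chains had negative log2 fold changes, with -1.14 for Col1a2 (adjusted p = 2.24e-09), -0.90 for Col15a1 (4.76e-08), -0.51 for Col16a1 (0.000337) and -1.12 for Col17a1 (0.00225). These calls differed in how they held when a library was left out. With DESeq2, Col1a2 and Col15a1 passed without each of the 4 libraries in turn, with largest adjusted p of 0.000101 and 0.00202. Col16a1 passed in 2 of those 4 fits and Col17a1 in 1. With edgeR no gene of any kind passed without wild type replicate 1 or without wild type replicate 2, where Col1a2 had adjusted p = 0.117 and 0.227, and Col16a1 did not pass without knockout replicate 1 (adjusted p = 0.0622).

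**Figure D2:**
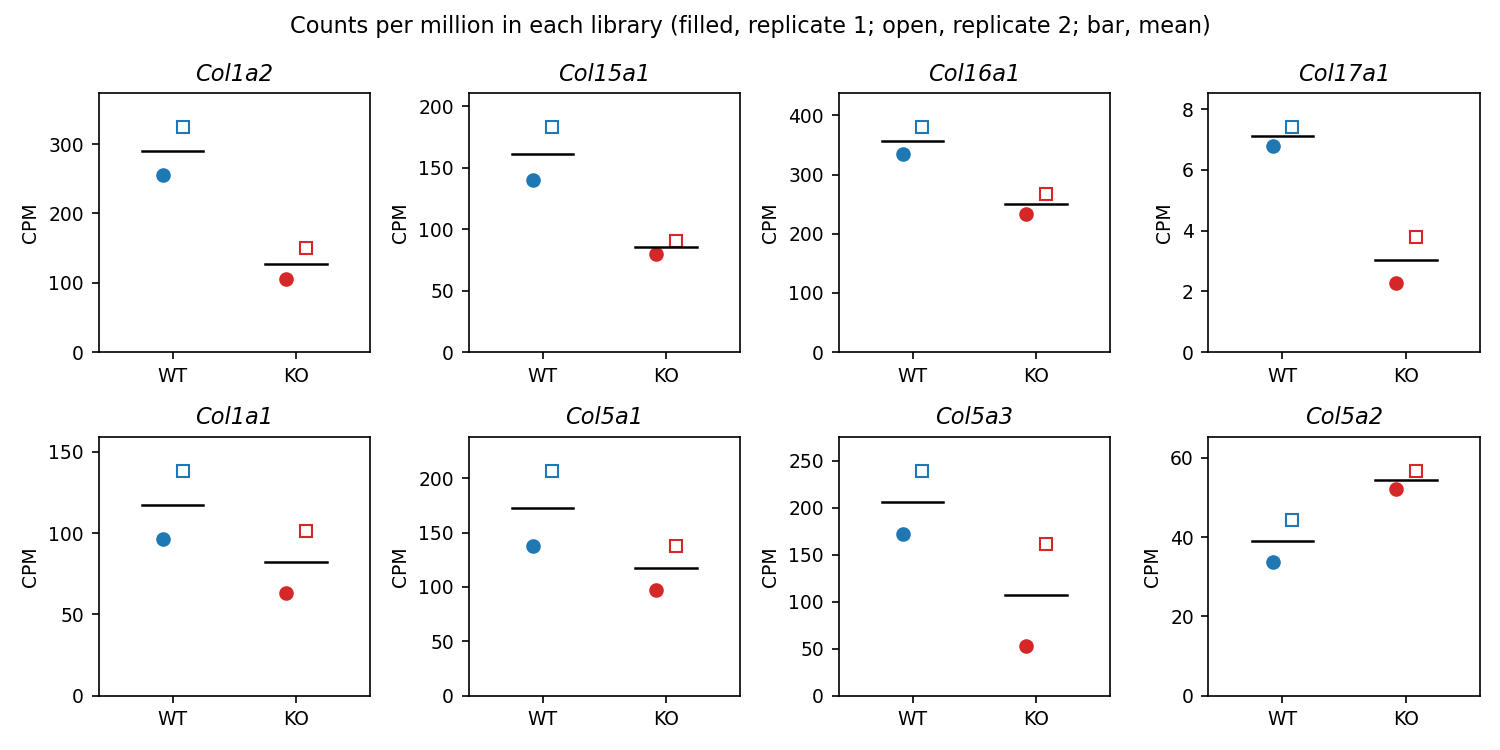
Expression in CPM in each library of the 4 chains that fell and of Col1a1, Col5a1, Col5a3 and Col5a2, with filled points for replicate 1, open points for replicate 2 and bars for the means of 2 libraries. Col1a2 sits at 255 and 324 in wild type (WT) and 106 and 150 in the knockout (KO), whereas Col1a1 overlaps between the groups and Col5a3 reaches 53.2 in one knockout library and 161 in the other.

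The stretches just upstream of the transcription starts of the 4 chains that fell are shown so that their base composition can be compared. They are the 250 bases before the start in RefSeq's annotation of GRCm38.p6, 5′ to 3′ on the gene's strand. Capitals mark 3 motifs of promoters, which are CCAAT and the GC box core GGGCGG together with the TATA box core TATAAA, searched on both strands, so that a match on the opposite strand appears as its reverse complement. No matches overlap. Col1a2 lies at chr6:4505368-4505617 on the plus strand, Col15a1 at chr4:47207762-47208011 and Col16a1 at chr4:130047590-130047839, both plus, and Col17a1 at chr19:47692043-47692292 on the minus strand.
Col1a2: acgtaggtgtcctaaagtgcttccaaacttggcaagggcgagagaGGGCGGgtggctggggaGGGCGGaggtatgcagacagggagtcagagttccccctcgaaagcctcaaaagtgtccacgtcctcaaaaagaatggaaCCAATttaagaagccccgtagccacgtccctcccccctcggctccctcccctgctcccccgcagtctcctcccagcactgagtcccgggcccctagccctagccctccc
Col15a1: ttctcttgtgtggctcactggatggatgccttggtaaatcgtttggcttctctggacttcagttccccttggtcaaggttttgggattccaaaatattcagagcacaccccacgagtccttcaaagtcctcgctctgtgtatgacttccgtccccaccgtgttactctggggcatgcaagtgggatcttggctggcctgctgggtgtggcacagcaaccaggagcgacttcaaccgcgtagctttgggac
Col16a1: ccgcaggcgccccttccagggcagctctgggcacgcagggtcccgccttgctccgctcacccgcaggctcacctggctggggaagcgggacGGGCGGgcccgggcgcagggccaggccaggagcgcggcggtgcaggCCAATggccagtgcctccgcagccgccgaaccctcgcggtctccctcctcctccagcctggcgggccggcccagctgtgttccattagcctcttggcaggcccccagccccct
Col17a1: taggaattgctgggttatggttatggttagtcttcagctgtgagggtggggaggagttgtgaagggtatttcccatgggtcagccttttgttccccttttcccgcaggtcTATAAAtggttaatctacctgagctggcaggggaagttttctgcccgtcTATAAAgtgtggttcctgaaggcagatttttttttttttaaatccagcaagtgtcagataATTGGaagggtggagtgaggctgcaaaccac
The 4 windows have little in common by these measures. Col16a1 holds 21 CpG dinucleotides and Col1a2 11, against 8 for Col15a1, 2 for Col17a1 and a median of 6 over all 32851 windows of the same length. CCAAT occurs in Col1a2, Col16a1 and Col17a1, GGGCGG in Col1a2 and Col16a1, and TATAAA in Col17a1, while the Col15a1 window holds none of these letters. 29 of the 36 chains had an entry, with 31 windows. CCAAT was in 35.5% of them against 33.8% of all windows, GGGCGG in 58.1% against 32.7%, and TATAAA in 9.68% against 12.4%. A match is a string of letters and not a shown binding site.

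Among the fibrillar chains, 1 of 7 fell, none rose, and the median log2 fold change was -0.51. At an unadjusted p under 0.05, 2 were lower and 1 was higher, and DESeq2 called 1 in each direction. For comparison, 5.63% of all genes tested fell and 3.62% rose, and 4016 of 13773 had an unadjusted p under 0.05 in either direction. Summed over the 7 chains, the level was 130.6 and 174 FPKM in wild type and 73.9 and 121 in the knockout. Col1a1, the partner of Col1a2 in type I collagen, measured 96.2 and 138 CPM in wild type and 63.0 and 101 in the knockout. The groups overlapped, and the difference did not pass (log2 fold change -0.51, SE 0.25, adjusted p = 0.225). Col3a1, the chain of type III collagen of soft connective tissue, measured 65.5 and 95.7 CPM against 63.3 and 104, with a log2 fold change of 0.06 (SE 0.26, adjusted p = 0.909).

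Type V collagen starts fibrils and sets their width, and its chains did not share a direction. Col5a1 measured 138 and 207 CPM in wild type and 97.2 and 137 in the knockout (log2 fold change -0.56, SE 0.22, adjusted p = 0.160). Col5a3 measured 173 and 239 against 53.2 and 161, with a 3.03-fold difference between the knockout libraries (log2 fold change -0.94, SE 0.46, adjusted p = 0.226). Col5a2 measured 33.6 and 44.3 against 52.0 and 56.7, with both knockout libraries above both wild type libraries (log2 fold change 0.48, SE 0.13, adjusted p = 0.0741). None of the 3 passed in edgeR, and the authors' deposited table gives Col5a2 a log2 fold change of 0.47 with adjusted p = 0.0301. Col5a2 and Col3a1 are neighbours on chromosome 1 in RefSeq's GRCm38.p6. Col24a1, a minor fibrillar chain, was at 0.793 to 1.35 CPM in the 4 libraries.

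**Figure D3:**
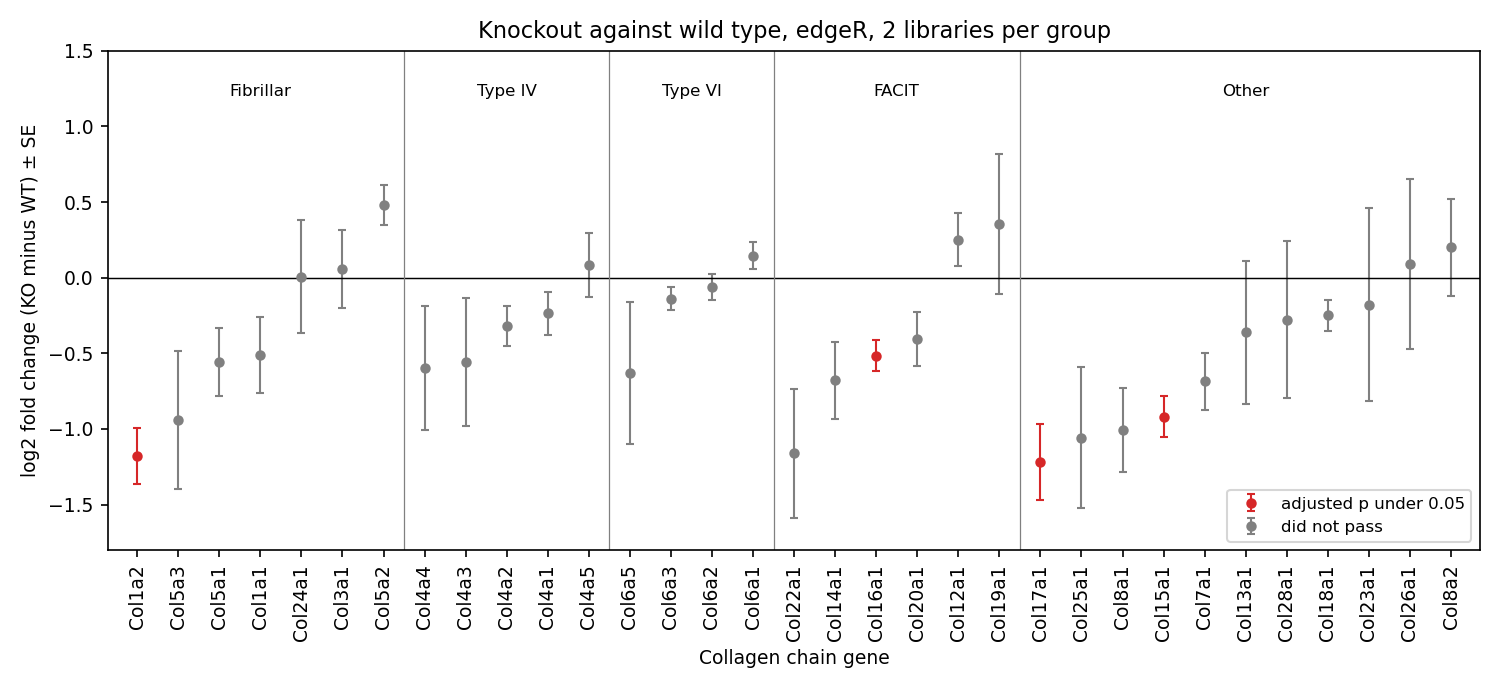
Log2 fold change, knockout minus wild type, of the tested chains with bars of 1 standard error, grouped by collagen type. The 4 chains that passed all lie below 0, from -0.52 for Col16a1 to -1.22 for Col17a1, and Col6a1, Col6a2 and Col6a3 lie between -0.14 and 0.14.

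Chains of one collagen type, and Col3a1 and Col2a1 against Col1a1, were set against each other within each library as FPKM ratios, for 9 pairs in which both chains reached 0.1 FPKM in all libraries. An exact two-sided permutation test of 2 libraries against 2 cannot give a p below 0.333, so no ratio could pass, and all pairs whose groups did not overlap had exact p = 0.333 (0.429 adjusted over the 9). Col1a1 to Col1a2 was 0.413 and 0.466 in wild type and 0.653 and 0.739 in the knockout, a 1.58-fold higher ratio on average. Type I collagen is normally made of a pair of alpha1 chains and a single alpha2 chain, and the Col1a1 level lay below that of Col1a2 in every library. Col3a1 to Col1a1 was 0.575 and 0.585 against 0.849 and 0.867. Within each group this ratio was nearly constant, although the level of each gene varied more.

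For type V, Col5a1 to Col5a2 was 3.22 and 3.66 in wild type and 1.46 and 1.90 in the knockout, and Col5a3 to Col5a2 was 5.59 and 5.87 against 1.11 and 3.09. Both ratios were lower in both knockout libraries. Col1a1 to Col2a1, which sets type I against the main cartilage collagen, was 0.00389 and 0.00596 against 0.00178 and 0.00291. That ratio moved with Col2a1 as well, which rose from 26008 and 24370 CPM in wild type to 37111 and 36603 in the knockout.

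**Figure D4:**
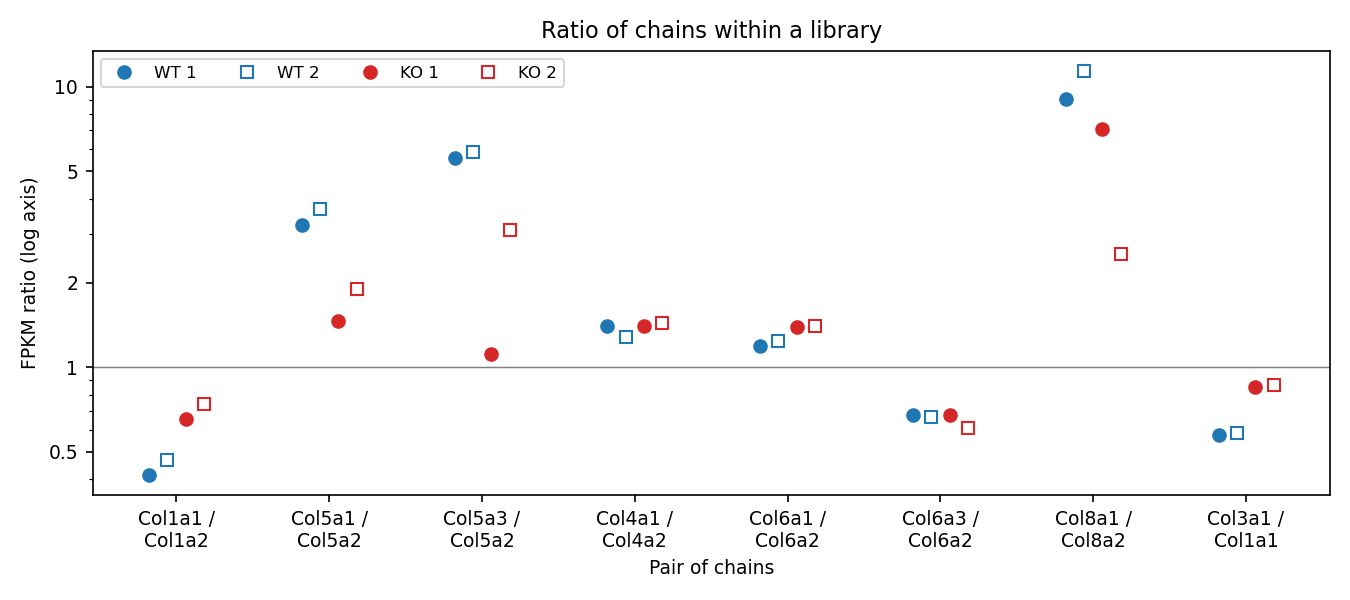
FPKM ratio of 2 chains within each library (log axis), with 2 wild type and 2 knockout points per pair, for the compared pairs other than Col1a1 to Col2a1. Col1a1 to Col1a2 is 0.413 and 0.466 in wild type and 0.653 and 0.739 in the knockout, while Col4a1 to Col4a2 stays between 1.28 and 1.44 in all 4 libraries.

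Type VI chains form a trimer of alpha1, alpha2 and alpha3 before secretion. Of the 4 tested chains none passed in either direction by edgeR or by DESeq2, none had an unadjusted p under 0.05, and the median log2 fold change was -0.10. Col6a1 measured 5637 and 5918 CPM in wild type and 6024 and 6739 in the knockout (log2 fold change 0.14, SE 0.090, adjusted p = 0.329). Col6a2 measured 4435 and 4448 against 4041 and 4465, and Col6a3 7789 and 7778 against 7031 and 7107. Their log2 fold changes were -0.06 (SE 0.084, adjusted p = 0.658) and -0.14 (SE 0.076, adjusted p = 0.269). In FPKM, Col6a1 stood at 1405 and 1438 in wild type and 1521 and 1698 in the knockout, above Col6a2 at 1183 and 1157 against 1092 and 1204, and above Col6a3 at 800.1 and 767 against 736 and 731. The order Col6a1, Col6a2, Col6a3 was the same in all 4 libraries.

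The ratio of Col6a1 to Col6a2 was 1.19 and 1.24 in wild type and 1.39 and 1.41 in the knockout, and that of Col6a3 to Col6a2 0.676 and 0.663 against 0.674 and 0.607, with overlap (exact permutation p = 0.667). Col6a1 and Col6a2 are neighbours on chromosome 10. The chains that can take the place of alpha3 were close to the limit of detection: Col6a5 was at 0.307 to 0.856 CPM, Col6a6 had at most 4 counts in a library, and Col6a4 had 2 counts in one wild type library and 0 in the other 3. A count of 0 allows up to 0.0915 to 0.0988 CPM at this depth (3 counts).

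Of the type IV chains of basement membranes, 5 of 6 were tested and none passed in either direction (edgeR and DESeq2), with 1 lower at an unadjusted p under 0.05 and a median log2 fold change of -0.32. Such unadjusted p-values were found for 4016 of the 13773 genes tested, in either direction. Col4a1 measured 144 and 134 CPM in wild type and 100.2 and 137 in the knockout (log2 fold change -0.24, SE 0.14, adjusted p = 0.318). Col4a2, which joins Col4a1 in the common trimer of basement membranes, measured 99.7 and 102 against 69.2 and 92.0 (log2 fold change -0.32, SE 0.13, adjusted p = 0.167). For Col4a1 the groups overlapped, and for Col4a2 they did not. Their ratio was 1.40 and 1.28 in wild type and 1.40 and 1.44 in the knockout (exact permutation p = 0.667). In RefSeq's GRCm38.p6 both genes start 21 bases apart on chromosome 8 and run in opposite directions, and without the use of strand in counting being known, reads in any shared stretch cannot be assigned. The chains of specialised membranes were scarce, with Col4a5 at 2.30 to 2.56 CPM, Col4a4 at 0.644 to 1.30 and Col4a3 at 0.397 to 0.922. Col4a6 had 5 and 0 counts in wild type and 4 and 3 in the knockout and was not tested.

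Of the 6 FACIT chains, Col16a1 fell and none rose, with a median log2 fold change of -0.46. At an unadjusted p under 0.05, 3 were lower and none higher, and DESeq2 called only the fall of 1. The shares over all genes tested were 5.63% falling and 3.62% rising, and 4016 of 13773 had an unadjusted p under 0.05 in either direction. Col12a1, which links fibrils in dense connective tissue and perichondrium, measured 142 and 192 CPM in wild type and 173 and 224 in the knockout, with overlap (log2 fold change 0.25, SE 0.17, adjusted p = 0.376). Col20a1 measured 16.0 and 18.5 against 10.9 and 15.3 (log2 fold change -0.40, SE 0.18, adjusted p = 0.192). Col14a1, the FACIT of tendon and skin, was at 3.26 and 4.64 CPM against 2.17 and 2.76. Col22a1, known from muscle-tendon junctions, was at 0.633 and 0.955 against 0.397 and 0.307, and Col19a1 was at 0.348 to 0.763. Neither of the last 2 reached 1 CPM in any library.

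Among the 11 other chains, Col15a1 and Col17a1 fell and none rose, with a median of -0.36. None was higher at an unadjusted p under 0.05, 5 were lower, and DESeq2 called 3 lower and none higher. Among all genes tested 5.63% fell and 3.62% rose, and 4016 of 13773 had an unadjusted p under 0.05 in either direction. Col8a1 encodes a short-chain collagen of vessel walls and corneal membranes. It measured 15.8 and 15.1 CPM in wild type and 10.1 and 5.28 in the knockout, with both knockout libraries below wild type and the second at 0.523 of the first (log2 fold change -1.01, SE 0.28, adjusted p = 0.0710). The authors' deposited table lists it at -0.93 with adjusted p = 0.00948. Its partner Col8a2 measured 1.49 and 1.12 CPM against 1.22 and 1.78, and the ratio of Col8a1 to Col8a2 was 9.03 and 11.4 against 7.11 and 2.54.

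Col18a1 is the closest relative of Col15a1 and the source of endostatin. It measured 22.3 and 24.0 CPM against 18.5 and 20.5 (log2 fold change -0.25, SE 0.10, adjusted p = 0.166). Col7a1, the anchoring fibril chain of skin, was at 4.02 and 3.92 CPM against 2.32 and 2.61. The transmembrane chains Col13a1, Col23a1 and Col25a1 were at 1.04 to 3.03, 0.214 to 0.658 and 0.798 to 2.73 CPM, and Col26a1 and Col28a1 stayed under 0.5 in every library. No chain averaging under 5 CPM passed, out of 15 tested. Of the 18 at or above that level, 4 fell, both knockout libraries lay below both wild type libraries in 11, above in 2, and the groups overlapped in 5. Among all genes tested, at any level, 5.63% fell, and the knockout libraries lay below in 30.7% and above in 30.9%. The shares among genes at or above 5 CPM alone were not computed, so the counts of the 18 have no matched share.

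Within each genotype most of these chains were higher in the second library. Of the 18 chains averaging at least 5 CPM, 17 were higher in knockout replicate 2 than in knockout replicate 1, with a median ratio of 1.31 and a range of 0.523 to 3.03, and 15 were higher in wild type replicate 2 than in replicate 1, with a median ratio of 1.14. Of all 9845 tested genes at that level, 47.5% and 47.9% were higher in the second library, with a median ratio of 0.994 in the knockout and 0.995 in wild type. Fits without 1 knockout library assume that the lone knockout library varies like the wild type pair. Without knockout replicate 2, edgeR called 11 of the 33 chains, all falling, where 5.85% of all genes tested fell: Col1a1, Col1a2, Col4a1, Col4a2, Col5a1, Col5a3, Col8a1, Col15a1, Col16a1, Col17a1 and Col20a1. Without knockout replicate 1 it called 4, all falling, where 4.77% of all genes fell: Col1a2, Col8a1, Col15a1 and Col17a1. Values that turned on the library left out were those of Col5a3, with a log2 fold change of -1.94 without knockout replicate 2 (adjusted p = 0.000123) and -0.35 without knockout replicate 1 (adjusted p = 0.247). Col1a1 had -0.89 (adjusted p = 0.0130) and -0.21 (adjusted p = 0.536) in the same fits. Col8a1 went the other way, at -0.60 (adjusted p = 0.0461) and -1.55 (adjusted p = 0.000557).

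The genes that process and bind fibrillar collagen did not move in 1 direction. Of 25 tested, 2 rose and 3 fell, with a median of -0.03, where 3.62% of all genes tested rose and 5.63% fell. Lox, which cross-links collagen, measured 1577 and 2349 CPM in wild type and 780.0 and 910 in the knockout and fell by 1.22 on the log2 scale (adjusted p = 0.0154). Dcn, the fibril-binding proteoglycan decorin, fell by 1.06 (446 and 732 against 252 and 313 CPM, adjusted p = 0.0397). Loxl4, a relative of Lox, rose by 0.74 (907 and 1165 against 1626 and 1842 CPM, adjusted p = 0.0236). Adamts3, which trims the ends of procollagen, rose by 0.63 (10.4 and 11.8 against 16.6 and 17.7 CPM, adjusted p = 0.0267).

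Of 12 collagen receptors tested 3 fell, where 5.63% of all genes tested fell. None of the 12 rose or was higher at an unadjusted p under 0.05 or by DESeq2, and their median was -0.26. Itga10, the integrin chain for type II collagen in cartilage, measured 74.9 and 78.1 CPM against 39.1 and 39.4 (log2 fold change -0.96, adjusted p = 0.00188). Antxr2, which binds type IV and type VI collagen, measured 107 and 96.2 against 67.8 and 67.3 (log2 fold change -0.59, adjusted p = 0.0113). Itga1, the integrin chain that prefers type IV collagen, measured 19.6 and 26.5 against 10.0 and 14.0 (log2 fold change -0.94, adjusted p = 0.0401). Of 15 tested laminins, nidogens and other basement membrane partners, none passed in edgeR, 2 were higher at an unadjusted p under 0.05, none was lower, DESeq2 called 2 rising and none falling, and the median was -0.16.

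Some markers of other cell types fell in the knockout, where 5.63% of all genes tested fell. Of 8 osteoblast markers 2 fell, Runx2 and Bglap, with a median log2 fold change of -1.10 and sums of 42.9 and 41.5 CPM in wild type and 24.0 and 29.2 in the knockout. Runx2 made up most of each sum, at 32.8 and 31.4 CPM against 19.9 and 23.1. Which cells of the culture made Runx2 was not tested, so its fall need not belong to osteoblasts. Bglap was scarce, at 1.17 and 1.32 CPM against 0.336 and 0.368. Fibroblast markers had a median of -0.03, and 1 of 9 fell, Fap, from 27.3 and 24.1 CPM to 7.54 and 7.73. At an unadjusted p under 0.05, 1 fibroblast marker was higher and 2 were lower, and the sums were 189 and 178 CPM against 134 and 167. Endothelial markers, relevant to Col15a1, Col18a1, Col8a1 and type IV, had a median of -0.48 and sums of 119 and 109.9 against 86.9 and 73.4, and 3 of 8 fell, Cdh5, Tek and Pecam1. Macrophage markers had a median of -0.50 and sums of 49.9 and 46.8 against 31.9 and 32.3, with 1 of 6 tested falling, Lyz2. Erythroid markers had a median of -0.88 and sums of 15.5 and 18.9 against 8.79 and 10.3, with 1 of 4 tested falling, Hba-a1.

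Tendon markers did not separate, with a median of -0.02, sums of 108 and 151 CPM against 78.4 and 175 and none of 5 passing (1 higher and 1 lower at an unadjusted p under 0.05, none by DESeq2). Their sum was lower in knockout replicate 1 than in knockout replicate 2, as were the levels of 17 of the 18 chains averaging at least 5 CPM. This order was not particular to tendon. The sums of osteoblast, fibroblast, macrophage, erythroid, smooth muscle and pericyte, and skeletal muscle markers shared it. Those of chondrocyte, endothelial and Schwann cell markers were higher in knockout replicate 1. Smooth muscle and pericyte markers summed to 18.4 and 17.6 against 14.7 and 21.2, with none of 8 passing by edgeR, by DESeq2 or at an unadjusted p under 0.05. Skeletal muscle markers summed to 7.78 and 6.95 CPM against 5.40 and 21.1, so that knockout replicate 2 stood above and knockout replicate 1 below both wild type libraries. Of the 5 tested, 1 rose, Tnnt3, where 3.62% of all genes tested rose. Tnnt3 had few counts, with 4 and 9 in wild type and 31 and 48 in the knockout. Schwann cell markers summed to 36.0 and 35.5 against 43.4 and 36.0. Of these 6, S100b rose and Mbp fell, where 3.62% of all genes tested rose and 5.63% fell. S100b was a large part of these sums, at 21.3 and 17.3 CPM against 35.1 and 27.1, and Mbp was at 10.1 and 13.4 against 3.66 and 4.27. Which cells of the culture made S100b was not tested, so its rise need not belong to Schwann cells. The part of these cell types in the falls of the collagen chains was not tested. In bulk RNA, fewer cells of a type and less RNA per cell cannot be told apart.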

How the data were processed

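RNA-seq values of 4 libraries, 2 wild type and 2 knockout by their titles, were used. The submitters' processing notes name Bowtie2 2.2.5 and mm9. Not given in the sources used here: how counting was done, with which annotation, and whether by strand. Each gene had a deposited expected count (an estimate, not always whole) and a deposited FPKM value in every library's file, per the file headers. They also deposited a DESeq2 comparison with log2 fold changes and p-values, which had no per-library values. Both the 2 libraries per group and, for chains of low level, the number of counts limit the precision.

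Expected counts were rounded and tested with edgeR 4.0.16 (R 4.3.3) by quasi-likelihood F tests with TMM scaling and filterByExpr, adjusted by Benjamini-Hochberg over the 13773 genes tested and called under 0.05. The standard error was taken as the absolute log2 fold change divided by the root of F. Chain ratios used FPKM and exact permutation tests (scipy 1.17.1). Alternatives were other scalings, no filter, DESeq2 1.42.0, libraries left out, a replicate block, and limma 3.58.1 on log2(FPKM + 1) with a minimum mean of 0.5 FPKM. The model was tested on simulated data. Named genes were Kdm6a, Kdm6b, all the chains (full statistics for those called or averaging at least 5 CPM), and, of each other list, those called among the 4 smallest p-values. Col2a1 is named for its ratio. The chains and lists were chosen with earlier results of these data known. Promoter sequences came from RefSeq (GRCm38.p6), and the files' coordinates were not used.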

Additional observations from a re-analysis of the deposited data

How the results depend on the processing

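Of all genes, 1274 were called (498 rose and 776 fell), against 0 to 1275 when a library was left out in edgeR, where 0 passed without either wild type library (3442 and 2587 at an unadjusted p under 0.05), and 417, 544, 634 and 783 in DESeq2. Without the filter on low counts 720 were called, and with the replicate block 2316. With limma on FPKM 536 rose and 490 fell, another split than with edgeR, and without a filter on FPKM 0 passed (4107 at an unadjusted p under 0.05). Of the chains, 4 were called, against 0 to 11 when a library was left out in edgeR and 3 to 7 in DESeq2. For the chains, no filter gave 2 calls, DESeq2 6, the block 10, limma on FPKM 3 of 19 tested, and limma without a filter 0 (7 at an unadjusted p under 0.05). Scaling by RLE or upper quartile, or summing transcript-named entries with their genes, left 4. Replicate numbers are not said to pair the libraries, and over all genes tested same-numbered libraries of the 2 pairs deviated together only weakly (r = 0.107). No such correlation was computed for the chains alone. Of the 18 averaging at least 5 CPM, 15 were higher in wild type replicate 2 and 17 in knockout replicate 2. Of all genes tested at that level, 47.9% and 47.5% were higher in these libraries. With that block Col1a1, Col5a1, Col5a3, Col5a2, Col8a1 and Col4a2 also passed (adjusted p from 0.00185 to 0.0474). Signs turned for Col3a1, at -0.34 (without knockout replicate 2) to 0.37 (without knockout replicate 1), with -0.19 without wild type replicate 1 (DESeq2 -0.19 and -0.34), for Col6a2, at -0.13 (without knockout replicate 2) to 0.0094 (without knockout replicate 1, DESeq2 0.0052), and for the log2 ratio of Col6a3 to Col6a2, at -0.14 (without knockout replicate 1) to 0.0085 (without knockout replicate 2). None of these 3 was called, and the cause was not tested. Chains under 1 CPM had few counts, so that a difference may not have been detectable at this depth.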
